A study of Homo sapiens with 120 samples.

Results

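HepG2 cells exposed to 30 µg/mL of a titanium dioxide nanopowder from the vendor Mknano, coded H in the series, were compared with untreated HepG2 cells. The comparison takes the 5 arrays titled as the high dose of this powder and the 8 arrays titled as controls, 13 of the 120 arrays of the series. HepG2 is a line grown from a human liver tumour, so the cells share 1 tumour genome and are a model of liver cells rather than liver tissue. Flasks were plated at 40000 cells per cm2, grown for 48 h and then exposed for 72 h to powder diluted in medium from a stock of 1.0 mg/mL, and the controls are labelled as untreated, with no vehicle stated. The same powder at 3 µg/mL (5 arrays) and at 0.3 µg/mL (4 arrays) served as lower doses, and the TiO2 powders coded A (Degussa) and I (Acros) at 30 µg/mL (5 arrays each) as the nearest other treatments, all for 72 h in the same line. The primary particles of the powders measured 22 to 214 nm when dry, and a size for powder H alone was not used here. Each array gives 1 flask's total RNA, the flasks being called biological replicates by the submitters, with RNA integrity numbers of 9.8 to 10.

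Titanium dioxide powders are poorly soluble white pigments. Cultured cells take up such particles mainly by endocytosis and gather them in endosomes and lysosomes, and the responses most often followed in liver cells are the NRF2 programme against oxidants, heat shock and metal-binding proteins, DNA damage signalling through p53 and inflammatory signalling through NF-kB. Hepatocytes and the HepG2 line also secrete albumin, apolipoproteins and acute phase proteins, which serve as a measure of their liver character.

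The 13 arrays carried the RNA of liver-like cells. All 16 measured hepatocyte markers had a control mean above a log2 intensity of 7.0, with ALB, the gene of serum albumin, at a control mean of 14.02 and AFP, the fetal serum protein alpha-fetoprotein, at 13.20, where the median of all probes on an array is 6.62. The 10 endothelial and 9 lymphocyte markers all had control means under 7.0, as did 8 of 10 fibroblast and 7 of 10 macrophage markers. The exceptions were led by ACTA2 (11.53) and LYZ (11.79), while the defining markers COL1A2, COL3A1, CD163 and C1QB lay between 6.49 and 6.59. Among all these markers KRT18, of the hepatocyte list, fell by 1.28 (limma adjusted p = 2.30e-04), CD68 fell by 0.33 (adjusted p = 0.024) and CD2 rose by 0.17 at a control mean of 6.78 (adjusted p = 0.0215), and their part in the results was not tested. The summed intensity of the hepatocyte list ran from 111967 to 122327 in the controls, from 76426 to 130153 in the 5 treated arrays and from 114046 to 130153 in treated replicates 3 to 5. In RNA from whole flasks, fewer cells of a type and less RNA per cell cannot be told apart.

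Treated replicates 1 and 2 stood apart from the other 3, and control replicate 8 from the other 7. A principal component analysis of all arrays with a settled group gave a first component with 38.1% of the variance, on which 9 arrays lay far from the rest. Treated replicates 1 and 2 were among these 9, at scores of -39.4 and -52.5, while the nearest array outside the 9 lay at -7. On the second component (13.2% of the variance) treated replicates 3, 4 and 5 lay at 12.5, 9.6 and 8.7 and control 8 at 11.8, whereas controls 1 to 7 lay between -10.2 and -5.3. The root mean square log2 distance from the control mean was 0.376 and 0.441 for treated replicates 1 and 2, and 0.195, 0.156 and 0.171 for replicates 3 to 5. Single controls, each against the mean of the others, lay at 0.099 to 0.183.

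Over the whole series 48 arrays had a score above 0 on the second component. Material H contributed 0 of 4 arrays at 0.3 µg/mL, 4 of 5 at 3 µg/mL and 5 of 5 at 30 µg/mL. Material A contributed 2 of 4, 5 of 5 and 5 of 5 at the same doses, material I 4 of 4, 5 of 5 and 5 of 5, and material L 4 of 4, 4 of 5 and 4 of 5. The materials coded B, C, D and M contributed 0 at every dose, 30 µg/mL included, and the controls 1 of 8. Treatment with H at 30 µg/mL and the side of this component therefore cannot be told apart, except through control 8, which is 1 flask. The labels used here give no slide or scan for any array. Counts and the genes described below are accordingly given with all 5 treated arrays and with replicates 3 to 5 alone, and the largest changes also beside control 8.

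**Figure D1:**
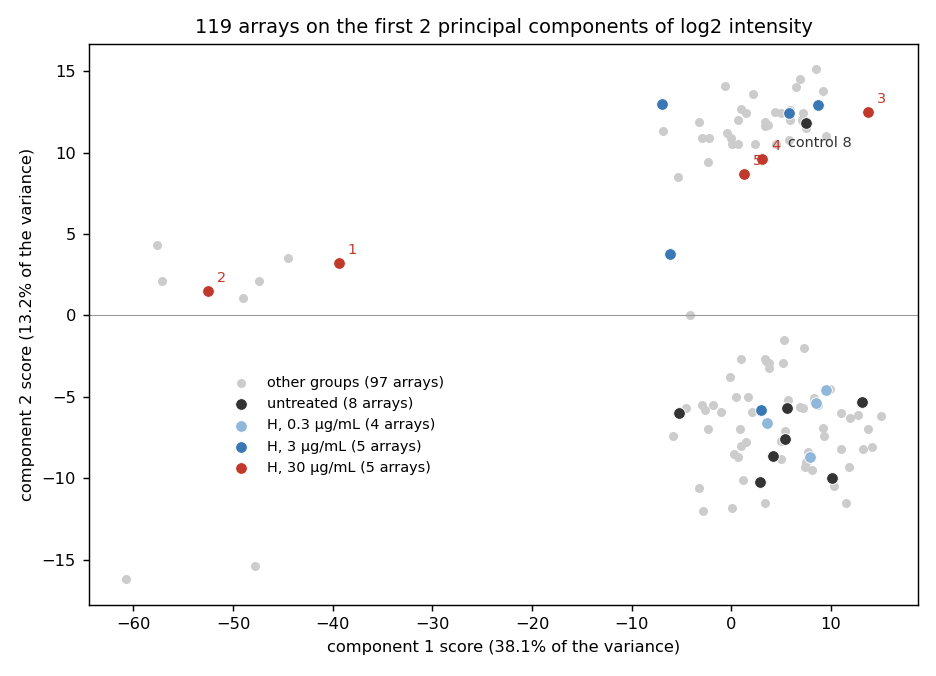
Scores of all arrays with a settled group on the first (x axis) and second (y axis) principal components of log2 intensity, 1 point per array, with treated replicates numbered and control 8 named. Treated replicates 1 and 2 lie at -39.4 and -52.5 on the first component, and replicates 3 to 5 lie with control 8 at 8.7 to 12.5 on the second.

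With all 5 treated arrays, 1897 of 20046 genes passed the threshold of an adjusted p under 0.05 in limma (9.46% of all genes tested), 1183 of them higher (5.9%) and 714 lower (3.56%) than in the controls. Most of the changes were small, and 304 of the 1897 reached 1.5-fold. With treated replicates 3 to 5 alone, 172 genes passed (0.858%), 124 higher (0.619%) and 48 lower (0.239%). Of these, 148 (0.738%) also passed with 5 arrays in the same direction, 114 rising (0.569%) and 34 falling (0.17%), and the other 24 passed with 3 arrays only. The 2 tests share replicates 3 to 5 and all controls, so passing both is not independent support.

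The counts depended strongly on which arrays entered the fit. Without the 9 arrays that stand apart, whose wide scatter also enters the common estimate of the spread, 789 genes passed (3.94%), 453 higher (2.26%) and 336 lower (1.68%), and 460 of all genes passed both there and with 5 arrays (2.29%). Leaving out control 8 as well gave 1414 (7.05%), 781 higher (3.9%) and 633 lower (3.16%). Leaving out control 8 alone gave 2100 (10.5%), 1281 higher (6.39%) and 819 lower (4.09%). When the fit held only the 5 treated and 8 control arrays, 144 genes passed in limma, and with only replicates 3 to 5 and the 8 controls 0 passed, although 2522 genes then had an unadjusted p under 0.05 and the smallest adjusted p was 0.0954. Across the 1897 genes the change with 3 arrays was a median of 0.59 times the change with 5, and for the 148 genes that passed both it was 1.00 times. The 148 were chosen in part for passing with 3 arrays, so their ratio follows in part from that choice.

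**Figure D2:**
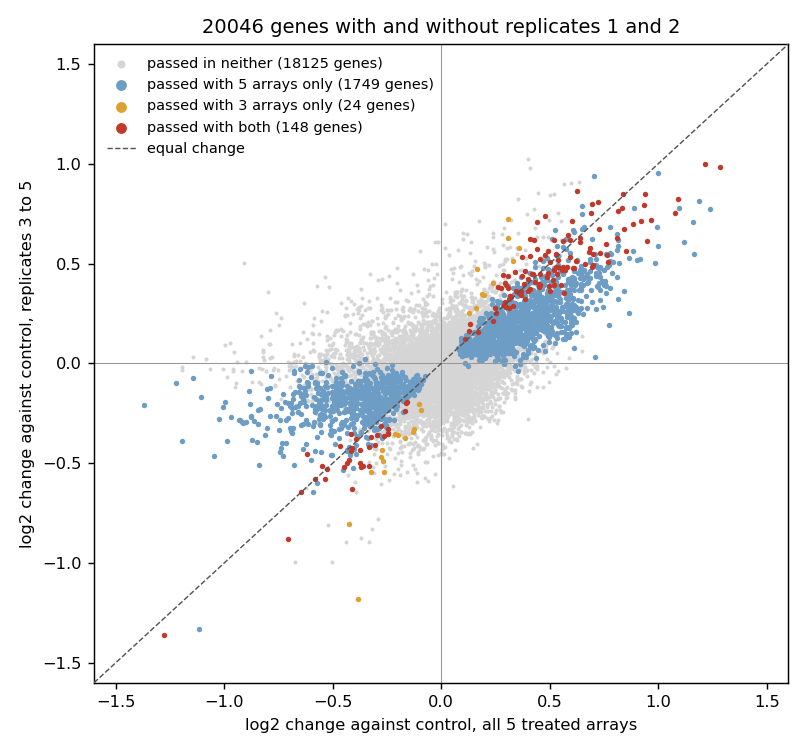
Log2 change against the 8 controls with all 5 treated arrays (x axis) and with treated replicates 3 to 5 (y axis), 1 point per gene, and the dashed line marks equal changes. The 148 genes past the threshold in both (red) lie near the line, while the genes that passed with 5 arrays only (blue) lie mostly between the line and 0 on the y axis.

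The largest rise among the genes that passed with 5 and with 3 arrays was that of UBR4, which encodes a very large ubiquitin ligase that recognises the ends of proteins. Its log2 intensity was 10.58, 10.79, 9.97, 9.79 and 10.05 in treated replicates 1 to 5, and ran from 8.57 to 9.92 in the controls with a median of 8.88. Replicates 1 and 2 were the highest of all 13 arrays, and the groups met only where control 8, at 9.92, exceeded treated replicate 4. UBR4 rose by 1.28 ± 0.20 (log2 change ± SE, 2.44-fold, limma adjusted p = 4.53e-06) with 5 arrays and by 0.98 ± 0.23 (1.98-fold, adjusted p = 0.019) with 3. The gene TRIM71, a ubiquitin ligase and RNA-binding protein of stem cells, measured 10.06, 10.06, 9.73, 9.69 and 9.15 in the treated replicates and 8.02 to 9.58 in the controls (median 8.45). Only replicate 5 fell inside the control range, and that range ended at control 8. It rose by 1.21 ± 0.18 (2.32-fold, adjusted p = 2.33e-06) with 5 arrays and by 1.00 ± 0.21 (adjusted p = 0.00731) with 3, and its other probe lay near the array median at 6.56 and did not change detectably (0.02, adjusted p = 0.843).

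CASC3, a core part of the complex that marks spliced exon junctions on messenger RNA, measured 10.27, 10.01, 9.41, 9.31 and 9.68 against 8.33 to 9.45 in the controls (median 8.55). It rose by 1.09 ± 0.17 (2.13-fold, adjusted p = 3.33e-06), and by 0.82 ± 0.19 with 3 arrays (adjusted p = 0.0189). EPHB4, a receptor tyrosine kinase for ephrins, measured 10.01, 10.42, 9.30, 9.56 and 9.38 against 8.32 to 9.46 (median 8.54) and rose by 1.08 ± 0.17 (2.11-fold, adjusted p = 1.36e-05), or by 0.75 ± 0.20 with 3 arrays (adjusted p = 0.0397). In both genes control 8 was the only control within the treated range. SORL1, a sorting receptor of endosomes, measured 9.66, 9.35, 8.96, 8.84 and 8.89 against 7.89 to 9.08 (median 8.04) and rose by 0.96 ± 0.14 (1.95-fold, adjusted p = 1.39e-06). Its second probe, at a control mean of 7.97, gave 0.17 ± 0.16 (adjusted p = 0.616), so the 2 probes of SORL1 disagree.

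NUP210, a nucleoporin that spans the nuclear membrane, was the one gene among the 12 largest rises whose treated and control arrays did not overlap. It measured 8.66, 9.0, 8.49, 8.68 and 8.63 in the treated replicates and 7.48 to 8.46 in the controls (median 7.70). It rose by 0.94 ± 0.13 (1.92-fold, adjusted p = 2.87e-07), and by 0.85 ± 0.15 with 3 arrays (1.8-fold, adjusted p = 9.97e-04). The remaining 6 of the 12 were ATXN7L3, of the deubiquitinating module of the SAGA coactivator, WASF2, which drives branched actin assembly, RSPRY1, a RING domain protein, the tyrosine kinase SRC, AP2B1, of the clathrin adaptor AP2, and the hexokinase gene HK2. They rose by 0.84 (HK2) to 0.95 (ATXN7L3) with 5 arrays and by 0.57 (AP2B1) to 0.79 (WASF2) with 3. WASF2 measured 9.05, 9.06, 8.73, 8.57 and 8.80 against 7.64 to 8.57 (median 7.87), so the lowest treated array stood level with control 8. A second AP2B1 probe rose by 0.72 ± 0.12 (adjusted p = 3.42e-05), a second HK2 probe gave -0.18 ± 0.20 (adjusted p = 0.675), and a dim SRC probe fell by 0.19 (adjusted p = 0.00255).

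Copper transport genes were picked out after their values were seen. SLC31A1, the main copper importer of the cell surface, measured 10.71, 10.74, 10.38, 10.15 and 9.97 in the treated replicates against 9.15 to 10.07 in the controls (median 9.66). ATP7B, the copper-exporting pump of hepatocytes, measured 9.79, 10.17, 9.49, 9.59 and 9.51 against 8.71 to 9.63 (median 8.86). In ATP7B every treated array lay above controls 1 to 7, in SLC31A1 all but replicate 5 did, and control 8 lay among the treated arrays in both. SLC31A1 rose by 0.76 ± 0.13 (1.7-fold, adjusted p = 1.67e-05) and by 0.54 ± 0.14 with 3 arrays (adjusted p = 0.0399), and ATP7B by 0.73 ± 0.11 (1.66-fold, adjusted p = 2.44e-06) and by 0.55 ± 0.13 (adjusted p = 0.0141). A dim second ATP7B probe gave 0.05 (adjusted p = 0.431). Other copper genes did not follow. The copper pump gene ATP7A changed by -0.051 with 5 arrays and -0.04 with 3. The copper chaperone gene ATOX1 changed by 0.082 and -0.115, and neither gene passed in either fit.

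Promoters are shown for UBR4, as the largest rise, and for the copper importer and exporter picked out above. Each is the 250 bases before the RefSeq gene start on GRCh38.p14, 5′ to 3′ on the gene's strand. They lie at chr1:19210267-19210516 (minus strand) for UBR4, chr9:113221294-113221543 (plus strand) for SLC31A1 and chr13:52012133-52012382 (minus strand) for ATP7B. Capitals mark the GC box GGGCGG on either strand and the cyclic AMP response element TGACGTCA, which reads the same on both strands; the 2 motifs do not overlap here.
UBR4: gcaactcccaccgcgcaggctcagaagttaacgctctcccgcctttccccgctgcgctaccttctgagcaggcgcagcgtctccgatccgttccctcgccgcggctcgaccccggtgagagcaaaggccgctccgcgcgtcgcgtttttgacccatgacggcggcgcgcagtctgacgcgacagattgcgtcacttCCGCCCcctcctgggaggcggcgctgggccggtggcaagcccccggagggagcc
SLC31A1: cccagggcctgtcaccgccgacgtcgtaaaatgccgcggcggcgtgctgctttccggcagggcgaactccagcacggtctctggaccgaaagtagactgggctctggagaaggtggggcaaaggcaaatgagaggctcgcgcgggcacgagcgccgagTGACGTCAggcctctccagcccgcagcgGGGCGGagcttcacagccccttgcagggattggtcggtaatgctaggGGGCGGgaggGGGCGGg
ATP7B: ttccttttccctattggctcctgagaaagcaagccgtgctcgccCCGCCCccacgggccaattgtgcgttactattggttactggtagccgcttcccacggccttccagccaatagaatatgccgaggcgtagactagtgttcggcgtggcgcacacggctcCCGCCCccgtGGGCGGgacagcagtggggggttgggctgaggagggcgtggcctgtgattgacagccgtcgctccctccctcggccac
The UBR4 window holds 1 GC box, and those of SLC31A1 and ATP7B hold 3 each. The SLC31A1 window alone of these holds the cyclic AMP element, once. Among 27305 RefSeq promoter windows of the same length, 42.3% hold the GC box and 1.77% the cyclic AMP element. These matches are of letters only.

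KRT18, which encodes a keratin of simple epithelia and is a standing component of the hepatocyte cytoskeleton, fell most among the genes that passed with 5 and with 3 arrays. It measured 7.42, 7.42, 6.90, 6.91 and 7.85 in the treated replicates, while the controls ran from 6.88 to 9.16 with a median of 8.86. The lowest control was control 8, and the next lowest lay at 8.36, above every treated array. KRT18 fell by 1.28 ± 0.25 (2.43-fold, adjusted p = 2.30e-04) with 5 arrays and by 1.36 ± 0.30 (2.57-fold, adjusted p = 0.0105) with 3. The fall was as large without replicates 1 and 2 as with them. A second, dim KRT18 probe gave -0.15 (adjusted p = 0.167).

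PPP3R1, the regulatory subunit of the calcium-dependent phosphatase calcineurin, measured 8.32, 8.08, 7.70, 7.61 and 7.97 against 8.00 to 9.28 (median 8.65). It fell by 0.70 ± 0.15 with 5 arrays (1.63-fold, adjusted p = 8.83e-04) and fell by 0.88 ± 0.18 with 3 (1.84-fold, adjusted p = 0.0045), and replicates 3 to 5 lay below every control.
BAX, a p53 target that promotes apoptosis at mitochondria, measured 8.57, 8.58, 8.31, 8.53 and 8.87 against 8.41 to 9.69 (median 9.26). It fell by 0.64 ± 0.15 (1.56-fold, adjusted p = 0.00179), and by 0.65 ± 0.18 with 3 arrays (adjusted p = 0.0483). Another BAX probe, at a control mean of 7.18, rose by 0.28 ± 0.08 (adjusted p = 0.023), so the probes of BAX disagree in sign.

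PPP1R11, an inhibitor of protein phosphatase 1, measured 9.60, 9.86, 9.63, 9.88 and 9.69 against 9.78 to 10.55 (median 10.35) and fell by 0.58 ± 0.09 (1.5-fold, adjusted p = 3.02e-06), equally with 3 arrays (-0.58 ± 0.11, adjusted p = 0.00123). CHMP3, of the ESCRT-III complex that pinches off membranes, was the only one of the 12 largest falls with no overlap between the groups. Its treated replicates measured 8.58, 8.83, 8.76, 8.76 and 8.98, its controls 9.0 to 9.44 (median 9.27), and it fell by 0.47 ± 0.08 (1.38-fold, adjusted p = 8.63e-05), while a second CHMP3 probe gave 0.02 (adjusted p = 0.966). The other 7 were SLC35F2, a solute carrier, CCN1, a secreted matrix signalling protein, MYL12A, a myosin regulatory light chain, ENSA, which inhibits a phosphatase in mitosis, ALG1, a mannosyltransferase of N-glycan assembly, DNASE2, the lysosomal nuclease that digests engulfed DNA, and the noncoding RNA MORC2-AS1. They fell by 0.42 (MORC2-AS1) to 0.62 (SLC35F2) with 5 arrays, and by 0.44 to 0.58 with 3. Of these, DNASE2 measured 7.80, 7.62, 7.60, 7.51 and 7.60 against 7.66 to 8.28 (median 8.08), with replicates 2 to 5 below all controls and replicate 1 within their range. A second ENSA probe fell by 0.64 ± 0.12 (adjusted p = 1.60e-04), and a second SLC35F2 probe gave 0.09 (adjusted p = 0.606).

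**Figure D3:**
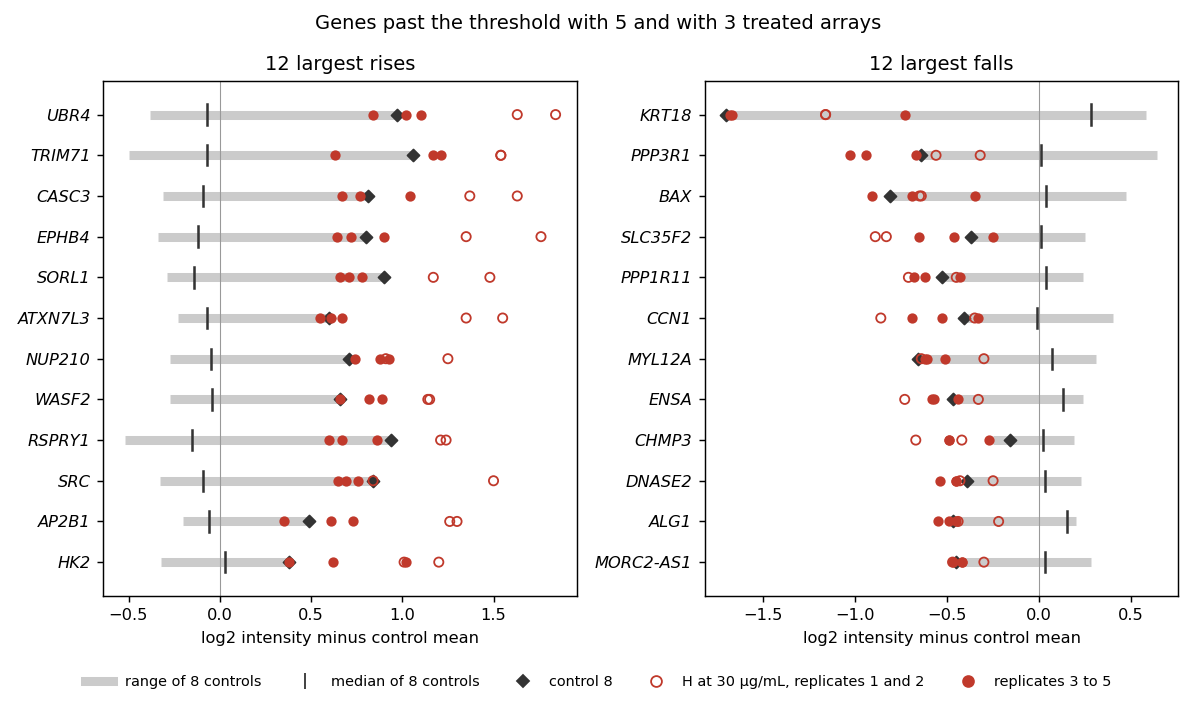
Log2 intensity minus the control mean (x axis) for the 12 largest rises and 12 largest falls among genes past the threshold with 5 and with 3 treated arrays, with bars for the range of the 8 controls, a tick for their median, a diamond for control 8, open circles for treated replicates 1 and 2 and filled circles for replicates 3 to 5. In 11 of the 12 rises and 11 of the 12 falls control 8 lies at or beyond the nearest treated array, although it is a control.

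Control 8 lay with the treated arrays in most of these genes. Among the 114 genes that rose with 5 and with 3 arrays, control 8 was above controls 1 to 7 in 103 and reached at least the lowest treated array in 90. Among the 34 that fell it was below controls 1 to 7 in 28 and reached the highest treated array in 27. The 5 treated arrays were separate from all 8 controls in 18 of the 114 and 4 of the 34, and from controls 1 to 7 in 81 and 13. Over all genes, 157 (0.783%) had treated arrays that did not overlap the 8 controls, 102 higher and 55 lower, and with replicates 3 to 5 there were 567 (2.83%). The share of all genes separate from controls 1 to 7, and the share with control 8 beyond them, were not counted. Control 8 was set aside after its place was seen. The counts against controls 1 to 7 therefore have no share of all genes to be read against.

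The arrays can be set beside each other by the median deviation of these genes from the control mean. For the 114 rising genes it was 0.55, 0.47, 0.38, 0.46 and 0.61 in treated replicates 1 to 5, and -0.11 to 0.00 in controls 1 to 7, but 0.36 in control 8. For the 34 falling genes it was -0.22, -0.35, -0.43, -0.46 and -0.41, against -0.04 to 0.12 in controls 1 to 7 and -0.33 in control 8. The treated values describe genes chosen on these arrays and are given without a test.

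At the lower doses the same genes were measured in other flasks. Those flasks entered the choice of genes only through the common estimate of the spread, and the controls are shared. At 3 µg/mL the median deviation of the rising genes was 0.05 in replicate 1 and 0.39 to 0.49 in replicates 2 to 5, and that of the falling genes -0.05 and -0.39 to -0.30. At 0.3 µg/mL it was -0.05 to -0.02 and 0.01 to 0.04. Replicate 1 at 3 µg/mL thus lay with controls 1 to 7, as it did on the second component, and the other 4 flasks lay with the 30 µg/mL arrays. Control 8, which received no powder, lay nearer to the 30 µg/mL arrays than to the other controls in both sets of genes.

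**Figure D4:**
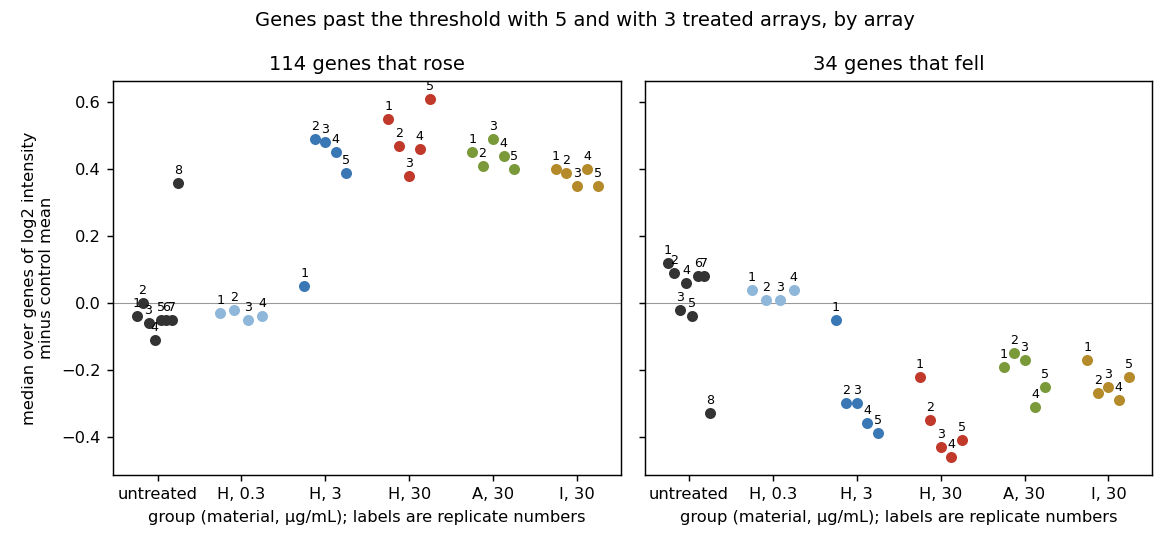
Median over the 114 rising (left) and 34 falling (right) genes of log2 intensity minus the control mean (y axis), 1 point per array with its replicate number, for untreated cells, powder H at 0.3, 3 and 30 µg/mL and powders A and I at 30 µg/mL. Control 8 (0.36 and -0.33) lies with the 30 µg/mL arrays, and replicate 1 of H at 3 µg/mL (0.05 and -0.05) lies with the other controls.

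Direct tests between doses need no controls. Between 30 and 3 µg/mL 0 of 20046 genes passed in limma (0%), with 1994 at an unadjusted p under 0.05 (9.95%), and with replicates 3 to 5 again 0 passed, with 644 at that unadjusted level (3.21%). For the 114 rising genes the median difference between 30 and 3 µg/mL was 0.12, and for the 34 falling genes -0.08, as a description, since these genes were chosen on the 30 µg/mL arrays. Between 30 and 0.3 µg/mL 1603 genes passed (8%), 980 higher (4.89%) and 623 lower (3.11%) at 30 µg/mL, and 396 did so with replicates 3 to 5 (1.98%). Against the controls, 274 genes passed at 3 µg/mL (1.37%) and 3 at 0.3 µg/mL (0.015%), 2 of them higher (0.00998%), with 1167 genes at an unadjusted p under 0.05 there (5.82%).

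UBR4 shows the pattern in a single gene. It averaged 8.79 at 0.3 µg/mL and 9.80 ± 0.63 (SD, n = 5) at 3 µg/mL, and 30 µg/mL exceeded 0.3 µg/mL by 1.44 ± 0.23 (limma adjusted p = 2.06e-05). Beside UBR4, the largest rises over 0.3 µg/mL were those of APP, which encodes the amyloid precursor protein, by 1.5 ± 0.25 (adjusted p = 4.00e-05), and RNA18SN5, an 18S ribosomal RNA gene, by 1.5 ± 0.30 (adjusted p = 3.28e-04). APP measured 9.91, 9.39, 8.86, 8.44 and 8.82 at 30 µg/mL and 7.58 ± 0.09 (SD, n = 4) at 0.3 µg/mL. The difference was 1.13 with replicates 3 to 5 (adjusted p = 0.0143), and 1 of its 2 other probes also rose against the controls, by 0.86 ± 0.18 (adjusted p = 6.37e-04). RNA18SN5 measured 13.68, 13.47, 12.85, 12.57 and 10.68, so that replicate 5 fell below the 0.3 µg/mL mean of 11.15, and with replicates 3 to 5 the difference of 0.88 did not pass (adjusted p = 0.146). The largest falls against 0.3 µg/mL were KRT18 (-1.64 ± 0.29, adjusted p = 7.08e-05), CHP1, a calcium-binding regulator of sodium-proton exchange (-1.51 ± 0.36, adjusted p = 0.00272), and the ribosomal protein pseudogene RPL21P28 (-1.45 ± 0.38, adjusted p = 0.00685), whose probe may share sequence with RPL21.

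A second and larger group of changes rested on treated replicates 1 and 2. Of the 1897 genes that passed with 5 arrays, 886 had an adjusted p over 0.5 or the opposite sign with replicates 3 to 5, 489 of them rising and 397 falling, and 9 of all 1897 turned sign. The median deviation of the 489 from the control mean was 0.62 and 0.73 in replicates 1 and 2 and 0.08 to 0.16 in replicates 3 to 5. For the 397 it was -0.85 and -0.89, and -0.17 to -0.11. These genes were chosen on the same arrays, so the split between the replicates follows from the choice and is given as a description.

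The largest fall of this kind was that of TUBA1C, an alpha-tubulin gene, which measured 9.16 and 9.63 in replicates 1 and 2 and 12, 12.26 and 12.65 in replicates 3 to 5, with controls at 12.01 to 12.75 (median 12.60). Replicates 1 and 2 lay far below every other array and replicates 3 to 5 within or beside the control range. TUBA1C fell by 1.37 ± 0.38 with 5 arrays (2.59-fold, adjusted p = 0.0109) and gave -0.21 ± 0.39 with 3 (adjusted p = 0.907). A second TUBA1C probe, also bright at a control mean of 11.94, gave -0.03 ± 0.15 with 5 arrays (adjusted p = 0.949), so the 2 probes of TUBA1C disagree. The same split was seen in ECI2, an enzyme of unsaturated fatty acid oxidation, at 7.30 and 7.41 against 10.19, 10.31 and 10.00 (controls 10.10 to 10.57, median 10.25). It was seen too in IMMT, the core protein of mitochondrial cristae junctions, at 7.37 and 7.22 against 9.92, 9.98 and 10.00 (controls 9.84 to 10.41, median 10.02). CHP1, the mitochondrial ribosomal protein gene MRPS21 and the nucleolar GTPase gene GNL2 fell by 1.19, 1.11 and 1.05 with 5 arrays and gave -0.39, -0.17 and -0.46 with 3 (adjusted p = 0.729, 0.934 and 0.555). Second probes of ECI2 and MRPS21, at control means of 8.90 and 9.16, gave -0.31 and 0.10 with 5 arrays (adjusted p = 0.104 and 0.728).

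Among the rises of this kind IGF2, the fetal insulin-like growth factor, measured 10.99 and 11.20 in replicates 1 and 2 and 10.02, 10.18 and 8.48 in replicates 3 to 5, with controls at 8.65 to 10.10 (median 9.26). It rose by 0.87 ± 0.24 (1.82-fold, adjusted p = 0.00961), and gave 0.25 ± 0.26 with 3 arrays (adjusted p = 0.778). A second IGF2 probe, at a control mean of 8.93, gave 0.61 ± 0.22 with 5 arrays (adjusted p = 0.0686). The channel gene TTYH3, the transcription factor gene NFE2L1, the histone methyltransferase gene SETD1A, the endoplasmic reticulum chaperone gene HYOU1 and WDR6 rose by 0.76 to 0.84 with 5 arrays. With 3 arrays they gave 0.19 to 0.38, with adjusted p of 0.505 to 0.848. NFE2L1 encodes NRF1, which drives proteasome genes, and those genes are described below.

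Gene lists were described by their counts and medians, and over all genes the median change was 0.00 with 5 and with 3 arrays. They are to be read against the 5.9% of all genes that rose and the 3.56% that fell with 5 arrays, and the 0.619% and 0.239% with 3. Those shares include dim genes, of which fewer pass, whereas most lists are brighter than the median control level of 6.71 of all genes. A fit of only the 10023 genes at or above the median level called 1357 higher and 1000 lower with 5 arrays. For bright lists these counts are the nearer measure. Of 28 genes of endocytosis and clathrin coats, 6 rose and 0 fell with 5 arrays (median 0.11), and 2 rose and 0 fell with 3 (median 0.01). AP2B1, described above, measured 8.28, 8.24, 7.59, 7.33 and 7.71 against 6.78 to 7.47 (median 6.92), and AP2A2, the alpha subunit of the same adaptor, rose by 0.42 ± 0.07 (adjusted p = 1.36e-05) with no overlap between the groups. DNM2, the dynamin that cuts coated vesicles free, and HIP1R, which ties clathrin coats to actin, each rose by 0.29 (adjusted p = 0.0108 and 5.93e-04). With 3 arrays AP2B1 and HIP1R passed (adjusted p = 0.0267 and 0.025) and AP2A2 and DNM2 did not (0.0531 and 0.154).

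Of 24 lysosome and proton pump genes, 5 rose and 2 fell with 5 arrays (median 0.13), and 0 passed with 3 arrays. CTSB, the lysosomal protease cathepsin B, measured 12.34 and 12.60 in replicates 1 and 2 and 11.27, 11.32 and 10.80 in replicates 3 to 5, with controls at 10.81 to 11.56 (median 10.98). It rose by 0.61 ± 0.19 (adjusted p = 0.0231) with replicates 1 and 2 far above the rest, and 3 arrays gave 0.08 (adjusted p = 0.938). CTSD, cathepsin D, and GAA, acid alpha-glucosidase, rose by 0.57 and 0.54 and gave 0.33 and 0.49 with 3 arrays (adjusted p = 0.455 and 0.124). ATP6V1D, of the proton pump that acidifies lysosomes, fell by 0.32 ± 0.07 (adjusted p = 0.00155) and gave -0.21 with 3 arrays (adjusted p = 0.254). Of 22 autophagy genes 5 rose and 2 fell (median 0.06), and 0 passed with 3 arrays. ATG9A, the membrane-carrying scramblase of autophagy, rose most, by 1.12 ± 0.22 (2.17-fold, adjusted p = 3.27e-04), from 10.47 and 10.86 in replicates 1 and 2, 9.35, 9.38 and 9.42 in the others, and 8.46 to 9.39 in the controls (median 8.66). With 3 arrays its change of 0.61 did not pass (adjusted p = 0.291). BECN1, which starts autophagosome formation, fell by 0.58 ± 0.19 (adjusted p = 0.0329) and gave -0.24 with 3 arrays (adjusted p = 0.732). Its value of 7.06 in replicate 2 lay more than a log2 unit below those of the other treated arrays.

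The largest shares of rising members with 5 arrays were in the lists of large ubiquitin ligases and of semaphorins and plexins. Of 18 large ubiquitin ligases, 7 rose and 0 fell with 5 arrays (median 0.15), 2 rose with 3 arrays (median 0.19) and 8 rose without the 9 arrays. Beside UBR4 and TRIM71 these included HUWE1, a ligase of p53 and MYC family proteins, at 8.39, 8.19, 7.64, 7.68 and 7.82 against 7.12 to 7.68 (median 7.25). HUWE1 rose by 0.66 ± 0.12 (1.58-fold, adjusted p = 1.19e-04), and gave 0.42 with 3 arrays (adjusted p = 0.125). The ligase gene HECTD4 rose by 0.40 ± 0.08 (adjusted p = 2.83e-04) and gave 0.24 with 3 arrays (adjusted p = 0.2). Of 16 semaphorin and plexin genes, guidance ligands and their receptors, 6 rose and 0 fell (median 0.24), and 1 rose with 3 arrays (median 0.11). That 1 was PLXNB1, a receptor of semaphorin 4D, which measured 9.07, 9.36, 8.59, 8.82 and 8.65 against 7.92 to 8.65 (median 8.19) and rose by 0.70 ± 0.10 (adjusted p = 2.44e-06), or 0.49 ± 0.12 with 3 arrays (adjusted p = 0.0222). PLXNB2 measured 10.31, 10.85, 9.14, 9.56 and 9.43 against 8.57 to 9.27 (median 8.84) and rose by 0.98 ± 0.24 (adjusted p = 0.00314), and gave 0.50 with 3 arrays (adjusted p = 0.475). SEMA3F, a secreted ligand, and PLXNA3, a receptor of the same class, rose by 0.48 and 0.32 and gave 0.30 and 0.21 with 3 arrays (adjusted p = 0.332 and 0.261).

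Of 22 chromatin regulators, 6 rose and 1 fell with 5 arrays (median 0.11), and 2 rose with 3. TRRAP, a scaffold of histone acetyltransferases, measured 9.87, 10.42, 9.88, 10.00 and 10.14 in the treated replicates and 9.31 to 9.86 in the controls (median 9.48), without overlap. It rose by 0.54 ± 0.11 (1.45-fold, adjusted p = 2.74e-04) and by 0.48 ± 0.12 with 3 arrays (adjusted p = 0.0335). MED12, of the Mediator kinase module, rose by 0.55 ± 0.09 (0.39 with 3 arrays, adjusted p = 0.0399), and CHD8, a chromatin remodeller, by 0.73 ± 0.13 (0.48 with 3 arrays, adjusted p = 0.112). Of 28 nuclear pore genes 7 rose and 3 fell (median 0.06), and 1, NUP210, rose with 3 arrays. NUP188, NUP214 and NUP93 rose by 0.46 to 0.49 with 5 arrays and gave 0.31 to 0.40 with 3 (adjusted p = 0.0581 to 0.17).

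Of 33 genes of actin, focal adhesions and actin crosslinkers, 7 rose and 2 fell with 5 arrays (median 0.10), and 1 rose (SRC) and 1 fell (MYL12A) with 3 (median -0.04). SRC measured 10.55, 11.21, 10.36, 10.40 and 10.47 against 9.38 to 10.55 (median 9.62), with control 8 level with replicate 1 and above replicates 3 to 5. TNS3, a tensin of focal adhesions, and PLEC, the crosslinker plectin, rose by 0.41 and 0.31 (adjusted p = 0.0024 and 0.00413) and gave 0.24 each with 3 arrays (0.358 and 0.244). Of 17 basement membrane and matrix genes 4 rose and 2 fell (median 0.01). TIMP3, an inhibitor of matrix metalloproteinases, measured 8.86, 8.50, 8.21, 7.99 and 7.87 against 7.32 to 8.24 (median 7.41), and rose by 0.77 ± 0.11 (1.7-fold, adjusted p = 9.61e-07) and by 0.51 ± 0.12 with 3 arrays (adjusted p = 0.0191). The laminin chain gene LAMA5 and the nidogen gene NID1 rose by 0.52 and 0.33 and the matricellular gene SPARC fell by 0.19, and these 3 did not pass with 3 arrays (adjusted p = 0.581, 0.883 and 0.489).

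In the list of complexes II to V of oxidative phosphorylation 1 of 37 genes rose and 6 fell (median -0.07). In complex I 0 of 35 rose and 3 fell (median -0.07). Of all genes 3.56% fell, and of the 10023 genes at or above the median level 1000 fell in the fit of these alone. With 3 arrays the only gene of both lists to pass was SDHC, a membrane anchor of complex II, which rose. It measured 10.23, 9.63, 9.66, 10.01 and 10.26 against 9.03 to 9.75 (median 9.45), and rose by 0.53 ± 0.11 (adjusted p = 6.22e-04) and by 0.55 ± 0.13 with 3 arrays (adjusted p = 0.0191). A second SDHC probe, at a control mean of 7.93, fell by 0.29 ± 0.07 with 5 arrays (adjusted p = 0.00492), so the 2 probes of SDHC disagree in sign. SDHD, the other anchor subunit, lay at 7.72 and 7.54 in replicates 1 and 2 and 8.99, 8.75 and 8.39 in the others (controls 8.70 to 9.36, median 8.94). It fell by 0.71 ± 0.20 (adjusted p = 0.0154), and gave -0.27 with 3 arrays (adjusted p = 0.723). The ATP synthase genes ATP5F1C and ATP5PO fell by 0.62 and 0.53, and the complex I genes NDUFV2, NDUFA6 and NDUFS3 by 0.61, 0.31 and 0.27, all without passing on 3 arrays (adjusted p = 0.333 to 0.93).

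Of 28 genes of mitochondrial import and cristae 1 rose and 5 fell (median -0.14), and 0 passed with 3 arrays (median -0.03). TIMM23, the channel of the inner membrane translocase, measured 10.04 and 10.10 in replicates 1 and 2, 11.62, 11.55 and 11.61 in the others, and 11.63 to 12.07 in the controls (median 11.87). All treated arrays lay below all controls, 3 of them narrowly, and TIMM23 fell by 0.87 ± 0.22 (adjusted p = 0.00396), or gave -0.27 ± 0.23 with 3 arrays (adjusted p = 0.733). MFN2, which fuses outer mitochondrial membranes, was the one to rise, by 0.64 ± 0.12 (adjusted p = 9.55e-05), and gave 0.45 with 3 arrays (adjusted p = 0.0928).

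Of 30 proteasome subunits 1 rose and 6 fell with 5 arrays (median -0.20), and 1 fell with 3 (median -0.09). That 1 was PSME3, an activator cap of the nuclear proteasome, at 8.90, 8.47, 8.64, 8.58 and 8.54 against 8.56 to 9.14 (median 8.89). PSME3 fell by 0.28 ± 0.07 (adjusted p = 0.00437) and by 0.32 ± 0.08 with 3 arrays (adjusted p = 0.0296). The regulatory particle genes PSMD12 and PSMC2 fell by 0.49 and 0.34 and PSMD3 rose by 0.32 with 5 arrays only. Of 27 genes of ribosome assembly 2 rose and 3 fell (median -0.05), and 0 passed with 3 arrays. The small nucleolar ribonucleoprotein genes NOP58 and NOP56 fell by 0.81 and 0.66 with 5 arrays and gave -0.36 and -0.21 with 3 (adjusted p = 0.593 and 0.807). Of 52 cytosolic ribosomal protein genes 2 rose (RPS27 by 0.28 and RPL34 by 0.46) and 1 fell (RPL19, by 0.33), the median was -0.10, and 0 passed with 3 arrays. Ribosomal protein genes have many near-identical pseudogenes, which such probes may also detect.

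Few oxidative stress genes of the NRF2 programme passed. Of 22 measured targets 3 rose and 1 fell with 5 arrays (median 0.08), and 1 rose with 3 (median 0.00). The list is bright, with a median control level of 8.73. In the fit of the 10023 genes at or above the median level, 1357 rose and 1000 fell with 5 arrays. The list's share of rises was near the share there, and its share of falls was below it. SRXN1, the sulfiredoxin that repairs peroxiredoxins, measured 9.78, 9.55, 8.97, 9.37 and 9.56 against 8.63 to 9.17 (median 8.80) and rose by 0.61 ± 0.11 (1.53-fold, adjusted p = 1.16e-04), and gave 0.46 ± 0.13 with 3 arrays (adjusted p = 0.0649). MAFG, a small MAF partner of NRF2, rose by 0.42 ± 0.10 (adjusted p = 0.00387) and by 0.45 ± 0.12 with 3 arrays (adjusted p = 0.0398). TXNRD1, thioredoxin reductase, measured 9.04, 9.13, 8.70, 8.85 and 9.48 against 8.23 to 9.0 (median 8.56) and rose by 0.46 ± 0.13 (adjusted p = 0.0122), while 3 arrays gave 0.43 ± 0.15 (adjusted p = 0.185). UGDH, which makes UDP-glucuronic acid, fell by 0.60 ± 0.18 (adjusted p = 0.0248) on replicates 1 and 2 and gave -0.07 with 3 arrays. Of the best known targets, HMOX1, heme oxygenase 1, changed by 0.16 ± 0.12, NQO1, a quinone reductase, by 0.01 ± 0.11 and GCLM, of glutathione synthesis, by 0.02 ± 0.12 (adjusted p = 0.432, 0.983 and 0.955) and did not pass. A second, dimmer GCLM probe, at a control mean of 6.88, rose by 0.24 ± 0.06 (adjusted p = 0.00585).

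Metallothioneins, small proteins that bind metals, did not pass with 5 arrays. MT1X measured 10.34 and 11.04 in replicates 1 and 2 and 9.39, 9.21 and 9.69 in replicates 3 to 5, against 9.87 to 10.82 in the controls (median 10.25). Replicates 3 to 5 lay below all 8 controls, and replicates 1 and 2 within or above the control range. The change was -0.37 ± 0.22 with 5 arrays (adjusted p = 0.316) and -0.87 ± 0.24 with 3 (adjusted p = 0.0537). MT1X passed in neither of these fits, but did without the 9 arrays (adjusted p = 2.26e-04). MT2A changed by 0.09 ± 0.17 with 5 arrays and -0.34 ± 0.19 with 3. In the list of 13 metallothionein and metal transport genes 1 rose and 0 fell with 5 arrays (median -0.02), and 0 passed with 3.

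Heat shock and protein folding genes gave a mixed picture. Of 22 cytosolic chaperones 3 rose and 1 fell (median -0.11), and 0 passed with 3 arrays. STIP1, which hands clients from HSP70 to HSP90, measured 11.97, 12.13, 10.96, 10.82 and 10.99 against 9.72 to 10.84 (median 10.18), and rose by 1.16 ± 0.20 (2.24-fold, adjusted p = 4.67e-05), while 3 arrays gave 0.71 ± 0.23 (adjusted p = 0.119). HSP90AB1, the constitutive cytosolic HSP90, rose by 0.66 ± 0.12 (adjusted p = 1.30e-04) and DNAJB6, a J-domain cochaperone, by 0.41 ± 0.10 (adjusted p = 0.00496), and neither passed with 3 arrays (0.0914 and 0.426). CHORDC1, an HSP90 cochaperone, fell by 0.45 and gave -0.20 with 3 arrays (adjusted p = 0.636). The inducible HSPA1A changed by -0.28 ± 0.20 (adjusted p = 0.434). Of 20 ATF4 and amino acid stress genes 0 passed with 5 or 3 arrays (median 0.04), with DDIT3 at 0.00 ± 0.13 and ATF3 at -0.38 ± 0.18 (adjusted p = 0.997 and 0.186). Among 19 endoplasmic reticulum chaperones 1 rose, HYOU1 (median -0.08).

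Of 19 p53 targets 2 rose and 4 fell with 5 arrays (median -0.06), and 2 fell with 3, BAX and TIGAR. TIGAR, a regulator of glycolysis, measured 7.56, 7.40, 7.43, 7.41 and 7.50 in the treated replicates and 7.62 to 8.02 in the controls (median 7.91), with no overlap. It fell by 0.41 ± 0.07 (1.33-fold, adjusted p = 2.21e-05) and by 0.42 ± 0.08 with 3 arrays (adjusted p = 0.00238), so that replicates 1 and 2 did not stand apart in it. GADD45A, a growth arrest gene, fell by 0.36 ± 0.11 (adjusted p = 0.0311), XPC, a sensor of DNA damage, rose by 0.39 ± 0.09 (adjusted p = 0.00136), and neither passed with 3 arrays. CDKN1A, the cell cycle inhibitor p21, measured 11.72 and 11.89 in replicates 1 and 2 and 10.96, 10.87 and 11.11 in the others, against 11.09 to 12 (median 11.50), a change of -0.20 ± 0.14 (adjusted p = 0.438). With replicates 3 to 5 the change in CDKN1A was -0.53 ± 0.16 (adjusted p = 0.0841), and without the 9 arrays it fell by 0.53 and passed (adjusted p = 0.00254).

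Of 16 NF-kB and chemokine genes 2 rose and 0 fell with 5 arrays (median 0.00), and 1 rose with 3. TNFAIP3, the feedback inhibitor A20, measured 8.10, 8.06, 7.94, 7.96 and 8.15 against 7.35 to 7.95 (median 7.66). It rose by 0.37 ± 0.08 (adjusted p = 4.32e-04) and by 0.34 ± 0.09 with 3 arrays (adjusted p = 0.0388). The adhesion molecule gene ICAM1 rose by 0.49 ± 0.14 (adjusted p = 0.0124) and gave 0.34 with 3 arrays (adjusted p = 0.383). CXCL8, which encodes interleukin 8, changed by -0.22 ± 0.17 (adjusted p = 0.481), and CCL20 by -0.49 ± 0.19 (adjusted p = 0.09).

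Of the 16 hepatocyte markers 0 rose and 1, KRT18, fell with 5 and with 3 arrays, and the median of the list was -0.20 with 5 arrays and 0.01 with 3. With 5 arrays APOH, a plasma glycoprotein, changed by -0.96, APOA1, the main protein of high density lipoprotein, by -0.44 and SERPINA1, alpha-1 antitrypsin, by -0.35, and these did not pass (adjusted p = 0.0802, 0.0695 and 0.0632). Of 22 acute phase genes 0 passed with 5 or with 3 arrays (median -0.04), and of 14 apolipoprotein genes 1 rose with 5 and 0 with 3 (median 0.02). Of 17 cytochrome P450 genes 0 passed with 5 arrays and 1 rose with 3 (median -0.02), with CYP1A1 near the array median throughout (control mean 6.65, change -0.03). ALB changed by -0.11 ± 0.06 and AFP by -0.10 ± 0.15 (adjusted p = 0.251 and 0.768). Of 19 liver transcription factor genes 3 rose and 1 fell (median 0.09). CEBPA, a factor of mature hepatocytes, measured 10.40, 10.14, 9.91, 10.66 and 10.86 in the treated replicates and 9.32 to 9.90 in the controls (median 9.70), without overlap. It rose by 0.72 ± 0.17 (1.65-fold, adjusted p = 0.00216) and by 0.81 ± 0.20 with 3 arrays (1.75-fold, adjusted p = 0.0255). ONECUT1 and TBX3 rose by 0.35 and 0.37 and FOXA1 fell by 0.35 with 5 arrays, without passing on 3 (adjusted p = 0.171, 0.209 and 0.938).

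Of 12 keratin and desmosome genes 1 rose and 2 fell (median -0.04): beside KRT18, KRT23 fell by 0.51 ± 0.14 (adjusted p = 0.0134) and the plakoglobin gene JUP rose by 0.40 ± 0.14 (adjusted p = 0.047). With 3 arrays KRT23 gave -0.46 and JUP 0.05 (adjusted p = 0.211 and 0.944). Of 33 DNA replication genes 3 rose and 2 fell (median -0.03), and POLE, the leading-strand polymerase, was the one to pass with 3 arrays, rising by 0.34 ± 0.07 with 5 and by 0.36 ± 0.09 with 3 (adjusted p = 7.45e-04 and 0.0208). Of 33 genes of G2 and mitosis 1 fell with 5 arrays (median -0.13) and 0 passed with 3. Of 25 splicing genes 3 rose and 1 fell, led by EFTUD2, a GTPase of the spliceosome, at 0.35 ± 0.10, PRPF8, its catalytic core, at 0.65 ± 0.18 and U2AF1 at 0.31 ± 0.11, and 0 passed with 3 arrays, where these gave 0.39, 0.24 and 0.19 (adjusted p = 0.0987, 0.718 and 0.601). Of 19 sterol synthesis genes 2 rose, DHCR7 and LSS by 0.45 each, and SC5D fell by 0.50, and with 3 arrays 0 passed, at 0.30, 0.24 and -0.14 (adjusted p = 0.335, 0.565 and 0.842). Of 19 aminoacyl-tRNA synthetases FARSB and MARS1 rose by 0.45 and 0.32 and GARS1 fell by 0.35, and with 3 arrays 0 passed, at 0.35, 0.33 and -0.12 (adjusted p = 0.338, 0.124 and 0.735). Of 29 immediate early genes CCN1 and SPRY2, a feedback inhibitor of receptor signalling, fell by 0.55 each, of which SPRY2 gave -0.18 with 3 arrays (adjusted p = 0.776), and EGR1 changed by 0.40 ± 0.17 (adjusted p = 0.12). Of 20 glycolysis genes HK2 alone passed, and of 16 fatty acid synthesis genes 0 did.

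**Figure D5:**
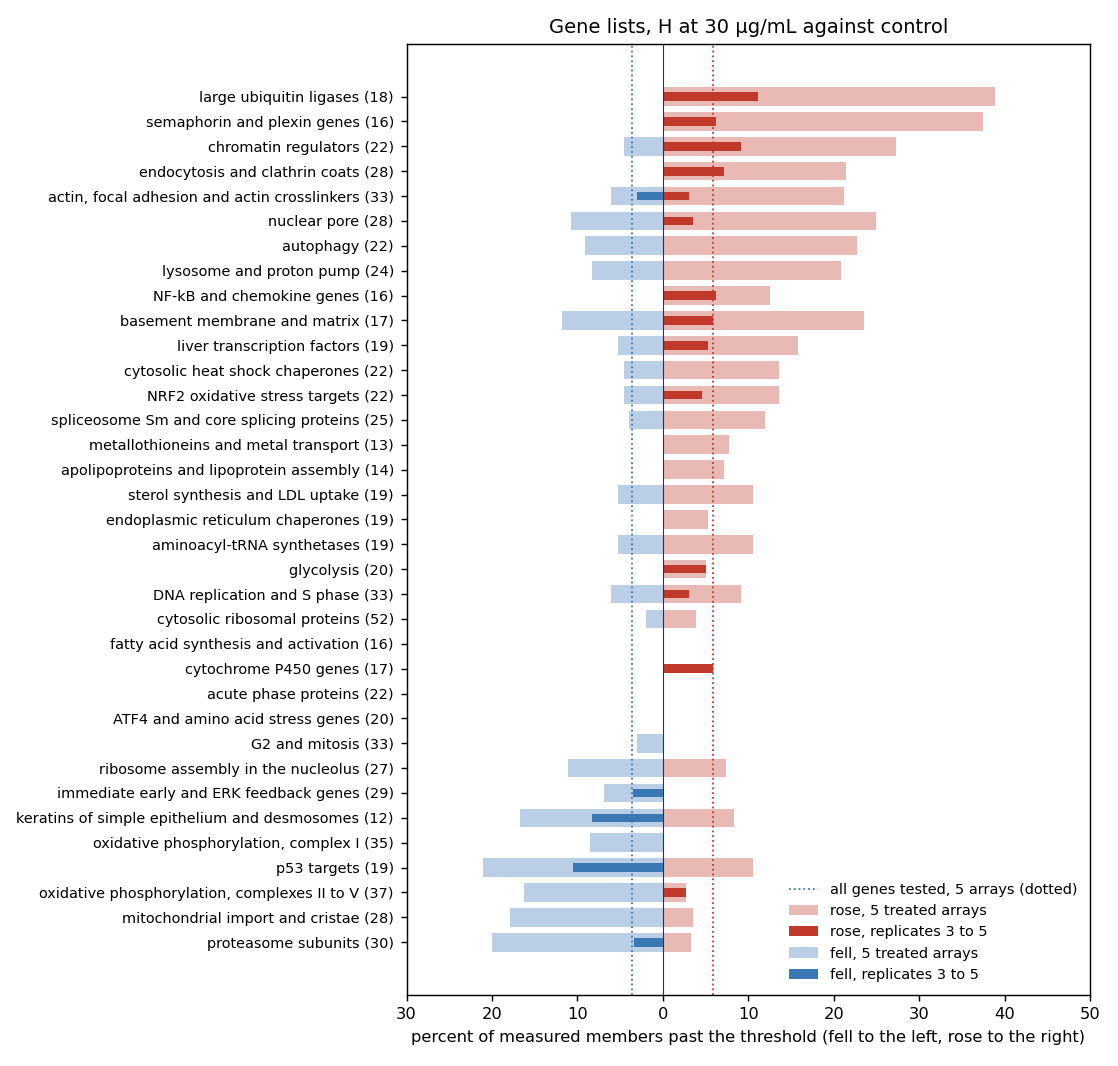
Percent of each list's measured members (number in brackets) that rose (right) or fell (left) against control at 30 µg/mL, with wide pale bars for all 5 treated arrays, narrow dark bars for replicates 3 to 5, and dotted lines at 5.9% and 3.56%, the shares of all genes that rose and fell with 5 arrays. The shares at the dotted lines include dim genes, of which fewer pass than of the brighter genes that make up most lists. Large ubiquitin ligases (7 of 18) and semaphorin and plexin genes (6 of 16) have the longest bars to the right, and the dark bars are short throughout. The lists were chosen with earlier results of these data known.

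The other TiO2 powders were compared with H at the same dose, and replicate 3 of A is among the 9 arrays that stand apart. Between H and A at 30 µg/mL 257 genes passed (1.28%), 122 higher and 135 lower in H, and between H and I 320 did (1.6%), 112 higher and 208 lower. With treated replicates 3 to 5 these fell to 90 (0.449%) and 1 (0.00499%). Of the 114 genes that rose against control in H, 2 were higher than in A and 1 higher than in I, and of the 34 that fell, 4 and 2 were lower, as a description, since the genes were chosen on the H arrays. By array, the median deviation of the 114 genes from the control mean was 0.40 to 0.49 in A and 0.35 to 0.40 in I, and that of the 34 genes -0.31 to -0.15 and -0.29 to -0.17. Values of A and I against the controls share these 8 controls with H and were not compared as overlaps.

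Where H differed from A, the heat shock gene HSPA1B, an inducible HSP70, led the rises with RNA18SN5 and the nuclear receptor gene NR2F1. HSPA1B measured 11.16, 10.60, 10.51, 10.25 and 9.57 in H and 9.05 to 9.64 in A, and was higher in H by 1.12 ± 0.16 (limma adjusted p = 2.73e-06), or 0.81 with replicates 3 to 5 (adjusted p = 0.00942). The H arrays spanned the control range of 9.71 to 10.82 (median 10.26), and against control the change was 0.13 ± 0.14 (adjusted p = 0.645), and all 5 A arrays lay below the lowest control. HSPA1B and HSPA1A are near-identical copies, so their probes may not separate them. CCN1 measured 8.18, 8.69, 8.51, 8.35 and 8.71 in H and 9.17 to 9.59 in A, and was lower in H by -0.85 ± 0.11 (adjusted p = 6.95e-07), or -0.82 with replicates 3 to 5 (adjusted p = 1.97e-04). SUSD2 and CCND2, the cyclin D2 gene, were lower by -0.73 and -0.66 (adjusted p = 0.0421 and 0.0306), and of these SUSD2 passed with replicates 3 to 5 (adjusted p = 0.0415). Against I, the rises in H were led by CACYBP (0.83), SESTD1 (0.70) and TFG (0.67) and the falls by the cadherin gene CDH2 (-1.20), LMO4 (-1.04) and NFX1 (-1.01), at adjusted p of 0.0195 to 0.0454. None of these 6 passed with replicates 3 to 5 (adjusted p = 0.492 to 0.88), and a second TFG probe fell against control, by 0.29 (adjusted p = 0.0484).

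The genes that rose had a longer median span in the genome than those that fell, and the spans overlapped widely. The test did not use this property. The RefSeq span from gene start to end had a median of 36.3 kb for the 114 rising and 13.7 kb for the 34 falling genes, against 22.1 kb for all genes tested and 27.0 kb for those at or above the median level. The lower and upper quartiles were 19.6 and 82.0 kb for the 114 genes and 7.0 and 65.9 kb for the 34. With 5 arrays the 1183 rising genes had a median span of 33.2 kb and the 714 falling genes 26.5 kb, and without the 9 arrays the medians were 41.5 and 16.9 kb. The 114 and 34 genes had median control levels of 7.90 and 8.62, above the 6.71 of all genes. Length is given as a description without a test.

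Other probes of the same genes gave a partial repeat. Of the 148 genes that passed with 5 and with 3 arrays, 55 have at least 1 further probe, 87 probes in all, of which 19 passed with 5 arrays in the gene's direction and 5 in the opposite one. Among the 28 further probes with a control mean of 7.0 or more, 12 passed in the same direction and 3 in the opposite one. Probes of a gene can detect different transcripts, and the probe used for each gene above is its brightest on average over all arrays with a settled group.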

How the data were processed

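Total RNA was measured on Illumina Human HT-12 v4 arrays. The authors deposited linear probe intensity, for which the series text names the beadarray package (2.4.1) and R (2.14.0). The sources used here state neither background correction, normalization nor a build. Every array had a median intensity of 98.4 and values from 52.5 to 18529, so each change is relative to the rest of its array, and the number of arrays limits the precision. Of 48107 probes, 30113 had 1 gene symbol in the platform annotation, 8 had several and 17986 had none, and 30074 matched RefSeq by Entrez identifier.

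The log2 of the deposited intensity was analysed with limma 3.58.1 in R 4.3.3. Each of 20046 genes was represented by its brightest probe. A single fit over the arrays of 25 groups shared 1 estimate of the spread, and 1 array whose labels disagree on the dose was left out. Benjamini-Hochberg adjusted p under 0.05 was the threshold. Tests with 3 arrays left treated replicates 1 and 2 out of the fit. On simulated data of the same size the test called 86 of 100 genes changed by 0.5 and 100 of 100 changed by 1 on the log2 scale, with 12 false calls. The simulated noise was independent between genes and arrays and held no arrays that stand apart. These counts therefore check the procedure and do not give its error rates on the real arrays. Any 2 of the 13 arrays differed by a root mean square of at least 0.129 on the log2 scale, so none was a copy of another.

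Members and gene lists were chosen with earlier results of these data known. Genes were named by a rule: the 12 largest rises and falls that passed with 5 and with 3 arrays with every treated array on 1 side of the control mean, the 6 largest each way that rested on replicates 1 and 2, the 4 members of smallest p in lists with 2 or more passing, a set of stress and liver genes, and the 3 largest each way against H at 0.3 µg/mL, A and I. Alternatives covered the arrays and groups in the fit, the probe of a gene, dim genes, scaling, the variance prior and each replicate. Sequences and gene spans are from RefSeq on GRCh38.p14.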

Additional observations from a re-analysis of the deposited data

Results flagged for a closer look

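In 32 of 314 groups of 4 to 8 arrays tested gene by gene, 1 array lay apart from the rest of its group by Dixon's criterion, which chance alone meets in about 1 group in 20. Of these, 22 were control replicate 8.

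Control 8 was far above the other controls in UBR4 (9.92 against 8.57 to 8.96), TRIM71 (9.58 against 8.02 to 8.65), CASC3 (9.45), EPHB4 (9.46), SORL1 (9.08), ATXN7L3 (9.15), NUP210 (8.46), WASF2 (8.57), SRC (10.55) and AP2B1 (7.47), all among the largest rises at 30 µg/mL. It was likewise high in CHD8 (9.78), HUWE1 (7.68), MFN2 (8.42), HSP90AB1 (12.27), TIMP3 (8.24), WDR6 (10.23), PRRC2A (9.05) and RNA18SN5 (12.64). It was far below the other controls in KRT18 (6.88 against 8.36 to 9.16), MYL12A (10.75), PPP1R11 (9.78) and RPL21P28 (8.98). In each of these genes control 8 moved in the direction of the treated arrays, and the labels used here give no reason for it.

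Among the treated arrays, replicate 2 was low in BECN1 (7.06, the others 8.23 to 8.62) and high in SRC (11.21, the others 10.36 to 10.55), and replicate 5 was high in CXCL8 (8.46, the others 7.62 to 7.77) and low in FARSB (12.49, the others 13.07 to 13.23). Single values in other controls were CDH2 in control 5 (10.87), IMMT in control 7 (10.41), NDUFS3 and PLXNA3 in control 2 (11.22 and 7.16), NFX1 in control 4 (9.07) and SC5D in control 3 (9.05).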

How the results depend on the processing

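The count of genes past the threshold against control (1897) moved to 172 with replicates 3 to 5, 789 without the 9 arrays, 144 with only treated and control arrays in the fit, 0 with only replicates 3 to 5 and the controls in the fit (limma, 2522 at an unadjusted p under 0.05) and 304 at 1.5-fold or more. For rises (1183) these were 124, 453, 123, 0 and 196, with 781 without the 9 arrays and control 8, and for falls (714) 48, 336, 21, 0 and 108. Leaving out 1 array gave 590 to 2840 genes, 438 to 1611 rises and 152 to 1229 falls: without treated replicate 1, 756 passed, without replicate 2, 590, and falls reached 1229 without replicate 3. The cause was not tested. Of the 24 largest changes named, 13 and 0 passed in the 2 small fits, and 24 to 24 when 1 array was left out. With the mean of a gene's probes 22 passed, and at 1.5-fold or more 16 did. The 24 were chosen for passing with 5 and with 3 arrays. Their passing with 1 array left out follows in part from that choice. List members that passed (141) numbered 23, 82, 19, 0 and 42, and 54 to 207 with 1 array left out.

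Against H at 0.3 µg/mL the count (1603) was 396 with replicates 3 to 5 and 739 to 2493 with 1 array left out, and against 3 µg/mL 0 to 10. Against A (257) it was 90 with replicates 3 to 5, 88 without the 9 arrays and 108 to 539 with 1 array left out; against I (320) it was 1, 35, 560 without dim genes, and 3 to 1317. H at 3 µg/mL against control (274) gave 1018 without the 9 arrays, 415 without dim genes and 20 to 603 with 1 array left out, and 0.3 µg/mL (3) gave 39, 5 after quantile normalization and 0 to 19. To look for pairing, the deviations of each array from its group mean were correlated over genes between same-numbered treated and control arrays. These correlations were 0.16, 0.41, 0.45, 0.18 and 0.02, of which replicate 5 alone lies under 0.1. The deviations of replicates 2, 3 and 4 correlated best with those of the control of their own number. No shared batch is stated for a number, so the test without pairing was kept. With the replicate block 1821 genes passed against control, 447 at 3 µg/mL and 30 at 0.3 µg/mL. With the mean of a gene's probes SNRPB2 gave 0.02 and TFG -0.04, reversed in sign. Of 3767 values of 157 genes under 24 settings, 3066 kept direction and side of the threshold and 668 no longer passed. The deposited arrays already shared nearly 1 distribution of values. Median centring and quantile normalization could therefore change little, and 157 and 155 genes kept both there. With replicates 3 to 5, 65 of the 157 genes did, and in the 2 small fits 53 and 27 did.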
